A study of Mus musculus with 8 samples.

Results

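Connexins and pannexin 1 were examined in endothelial cells sorted from the lungs of mice that carried an nANGPTL4 adeno-associated virus (AAV, a gene delivery vector) and of mice with a control AAV. The set held 5 genes, Gja5 (connexin 40), Gja4 (connexin 37), Gja1 (connexin 43), Gjc1 (connexin 45) and Panx1 (pannexin 1), of 31610 genes in the count table, and all 5 were among the 18874 genes tested. The genes were taken by symbol as the gap junction proteins of vessels with 1 pannexin, and the set was chosen by the value of Gja5 in the comparison of nANGPTL4 AAV with control AAV. The values of that comparison therefore describe the set and are not given as evidence about it.

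Connexins assemble into hemichannels in the cell membrane, and hemichannels of neighbouring cells dock to form gap junctions through which ions and small molecules pass. In vessels these junctions couple endothelial cells to each other and to smooth muscle and carry electrical signals along the wall. Connexin 40 and connexin 37 are the main connexins of arterial endothelium, connexin 43 is widely expressed and is found in endothelium at sites of disturbed flow, and connexin 45 is best known from smooth muscle and the developing heart. Pannexins form membrane channels that release ATP and are not known chiefly for joining cells.

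The nANGPTL4 AAV group held 4 libraries and the control AAV group held 4 libraries, labelled as independent biological replicates. Both groups were C57BL/6J mice that carried an AAV, and the cells were isolated from lung by flow sorting, so each library held a mixture of endothelial types. The count columns and titles of the nANGPTL4 AAV group carry the words NT Treated, which the labels do not explain. The age and sex of the mice, the virus dose, the interval to sacrifice and the promoter of the vector are not given in these sources. ANGPTL4 is a secreted protein that blocks lipoprotein lipase, and nANGPTL4 is a usual name for its amino-terminal fragment. Mouse Angptl4 averaged 5.04 ± 1.23 CPM in nANGPTL4 AAV cells and 3.26 ± 0.466 CPM in control AAV cells (SD, n = 4 each), with an edgeR adjusted p of 0.11, and this value does not report on expression of the virus in other organs.

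Total counts ran from 91750817 to 108921765 in nANGPTL4 AAV libraries and from 83183122 to 114337333 in control AAV libraries. Values are given as CPM, the standard unit that divides a gene's count by the library size, here after TMM scaling, and means stand with the SD over 4 libraries. Markers shared by endothelial cells, such as Pecam1 at 2647 ± 72.4 CPM in nANGPTL4 AAV cells and 2734 ± 121 CPM in control AAV cells, were high in every library. Their sum over 11 genes was 18200 to 18870 CPM in nANGPTL4 AAV libraries and 18930 to 19660 CPM in control AAV libraries. In the fit over the whole table (edgeR quasi-likelihood test, Benjamini-Hochberg adjustment, called at an adjusted p under 0.05), 26 of 18874 genes were called, which is 0.138%. Of these, 17 were lower (0.0901%) and 9 were higher (0.0477%) in nANGPTL4 AAV cells. Scaling by the upper quartile or by library size alone left 4 called genes in each case, with 1 lower and 3 higher.

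The promoters of Gja5 and Gja4 are shown because they are the arterial pair of the set. They are the 250 bases before the RefSeq start on build GRCm38.p6, printed 5′ to 3′ on the strand of the gene. The Gja5 stretch lies at chr3:97032152-97032401 on the plus strand, inside the longer Gja5 locus of the GENCODE annotation. The Gja4 stretch lies at chr4:127314040-127314289 on the minus strand. Capitals mark GGGCGG (the SP box), CACCC (the KLF box) and ACAAAG (a SOX core) on either strand, so that a match on the other strand reads as its complement.
Gja5: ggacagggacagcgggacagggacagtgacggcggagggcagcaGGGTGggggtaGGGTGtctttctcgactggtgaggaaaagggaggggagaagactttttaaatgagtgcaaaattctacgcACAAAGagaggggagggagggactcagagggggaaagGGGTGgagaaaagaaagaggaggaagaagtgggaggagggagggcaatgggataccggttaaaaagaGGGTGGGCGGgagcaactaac
Gja4: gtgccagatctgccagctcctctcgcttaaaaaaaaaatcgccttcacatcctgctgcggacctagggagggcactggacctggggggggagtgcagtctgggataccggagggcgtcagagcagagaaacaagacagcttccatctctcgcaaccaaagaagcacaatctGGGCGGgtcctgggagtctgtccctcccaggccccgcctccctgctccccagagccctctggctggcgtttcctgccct

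Of the 5 genes, 4 had an entry in the RefSeq promoter table, and Gjc1 is named only. The Gja5 stretch held 4 CACCC matches, 1 of which overlaps its GGGCGG match, and 1 ACAAAG match. The Gja4 stretch held 1 GGGCGG match and neither of the other letter runs. Among 32851 distinct promoters of the same length, 52.0% held CACCC, 32.7% held GGGCGG and 16.5% held ACAAAG, so each run is common and a match is a description only. The same windows were searched on both strands for TGGGAA, the core bound by RBPJ, which is the DNA-binding partner of Notch, and for GGAAGT, the core bound by ETS factors of endothelium. Other letter runs searched were TGACTCA of the AP-1 family, ACGTG of the hypoxia factors, the start-site box TATAAA and the erythroid and endothelial zinc finger core AGATAA. Neither the Gja5 nor the Gja4 stretch held any of these 6 runs. The Gja1 stretch held 1 TGACTCA and 1 AGATAA, which 4.46% and 9.99% of promoters hold, and the Panx1 stretch held 1 TGGGAA, which 21.6% hold. The shares for the others were 19.7% for GGAAGT, 12.4% for TATAAA and 16.6% for ACGTG.

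Gja5 was the lowest relative to control of the 5 genes. It had 65.4, 57.7, 67.4 and 65.5 CPM in nANGPTL4 AAV cells, against 101, 85.4, 104 and 96.6 CPM in control AAV cells. Every nANGPTL4 AAV library was below every control AAV library. The means were 64.0 ± 4.30 CPM in nANGPTL4 AAV cells and 96.9 ± 8.31 CPM in control AAV cells (SD, n = 4 each). The log2 fold change was -0.60 (SE 0.07), or 66.0% of the control level, and its edgeR adjusted p of 0.0317 is the value that led to the set. These values rest on 5838 to 7393 reads per nANGPTL4 AAV library and 8621 to 9649 reads per control AAV library. In sorted bulk cells, fewer cells that express Gja5 and less Gja5 RNA per cell cannot be told apart.

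The call on Gja5 was sensitive to the number of libraries although its size was not. With 1 library left out at a time the log2 fold change stayed between -0.64 and -0.54. The edgeR adjusted p then passed the threshold in 1 of 8 fits, 0.0146 without control AAV library 2. In the other 7 fits it lay at 0.0501 without nANGPTL4 AAV library 2, at 0.055 without control AAV library 4, at 0.0566 without nANGPTL4 AAV library 3, at 0.0767 without control AAV library 3, at 0.0796 without nANGPTL4 AAV library 4, at 0.0947 without control AAV library 1 and at 0.115 without nANGPTL4 AAV library 1. Among the 10 other ways of processing, 9 kept the call. A stricter filter of at least 1 CPM in 4 libraries gave -0.57 with an edgeR adjusted p of 0.0521.

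**Figure D1:**
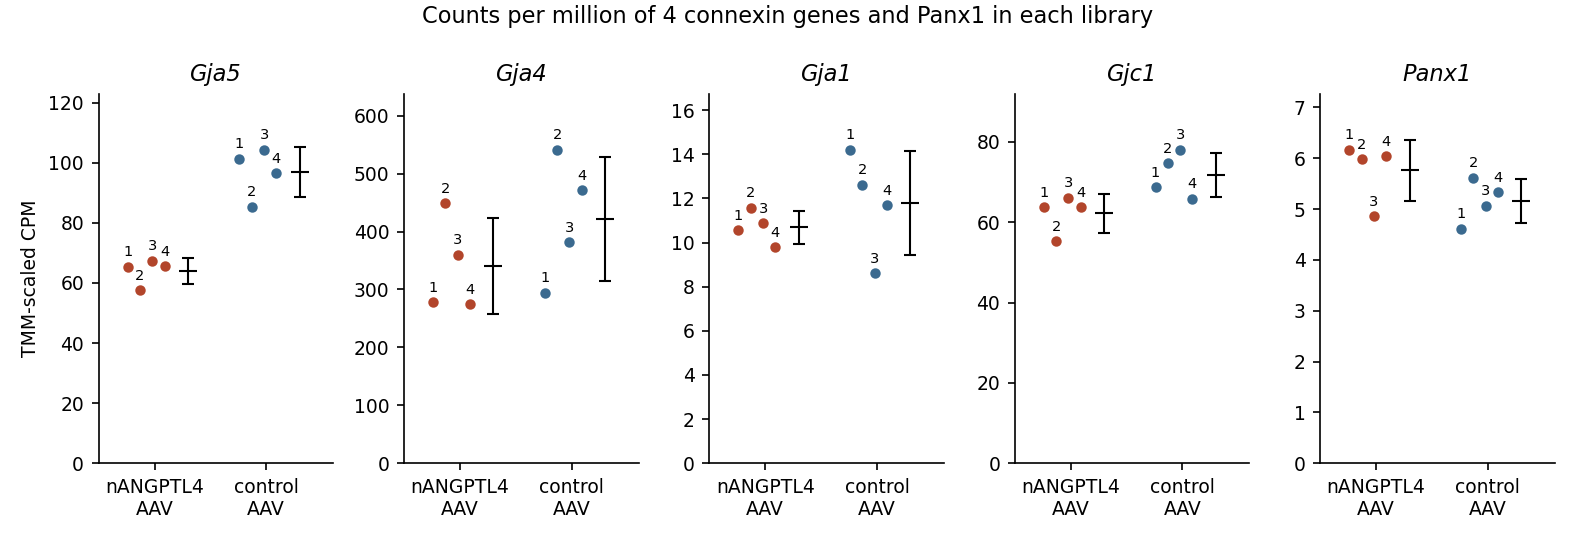
TMM-scaled CPM (vertical axes, from 0, a separate scale per gene) of Gja5, Gja4, Gja1, Gjc1 and Panx1 in each library, numbered 1 to 4, with nANGPTL4 AAV left of control AAV and black bars for the mean and SD. Only for Gja5 do the groups not overlap, at 57.7 to 67.4 CPM in nANGPTL4 AAV cells and 85.4 to 104 CPM in control AAV cells.

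**Figure D2:**
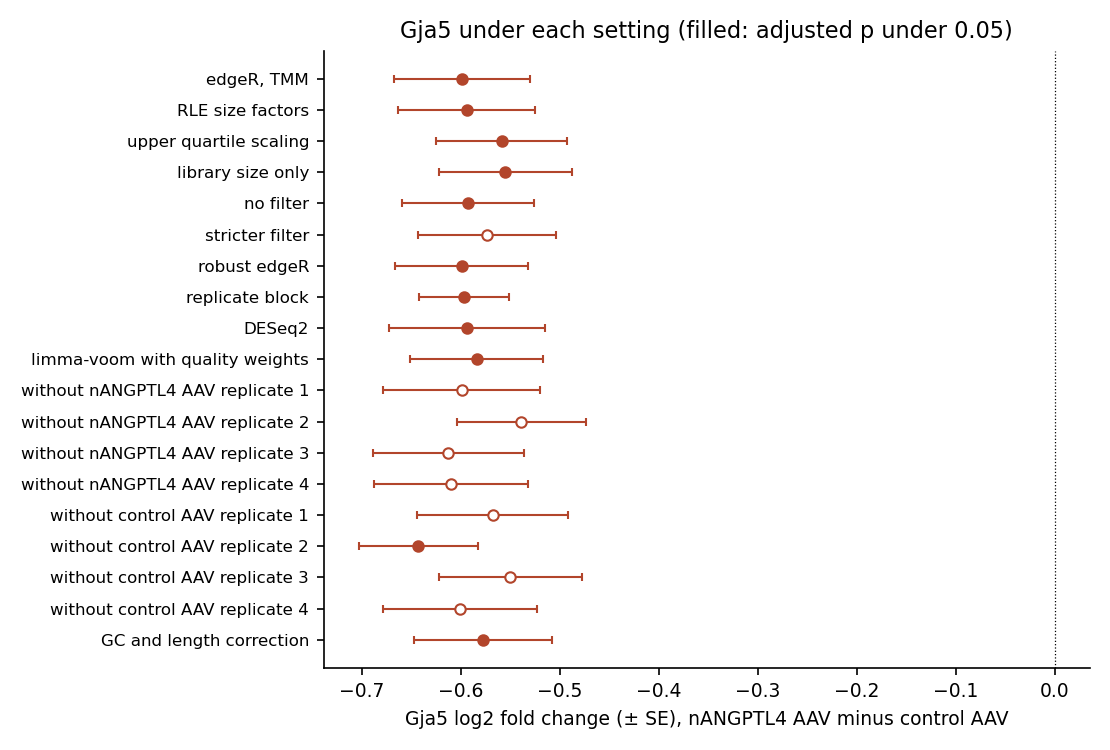
Log2 fold change of Gja5 with its SE (horizontal axis, nANGPTL4 AAV minus control AAV) under each way of processing and with each library left out (rows). Filled points have an adjusted p under 0.05 and open points do not, and all lie between -0.64 and -0.54.

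Gja4, which joins Gja5 in arterial endothelium, was the most abundant gene of the set and the one that varied most between libraries. It had 278, 449, 360 and 274 CPM in nANGPTL4 AAV cells, against 294, 541, 381 and 471 CPM in control AAV cells. The groups overlapped, with library 2 the highest of each group. The means were 341 ± 82.7 CPM in nANGPTL4 AAV cells and 422 ± 107 CPM in control AAV cells (SD, n = 4 each), and the log2 fold change of -0.31 (SE 0.19) was not called (edgeR adjusted p 0.44). Leaving out control AAV library 2 gave -0.16, and leaving out nANGPTL4 AAV library 2 gave -0.46. The value was -0.44 without control AAV library 1, -0.215 without nANGPTL4 AAV library 1 and -0.219 without nANGPTL4 AAV library 4. Its size thus depended on single libraries of both groups.

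Gjc1 was read at a level close to that of Gja5. It had 63.7, 55.2, 66.1 and 63.8 CPM in nANGPTL4 AAV cells, against 68.8, 74.6, 78.0 and 65.9 CPM in control AAV cells. The groups overlapped only through nANGPTL4 AAV library 3 and control AAV library 4. The log2 fold change was -0.21 (SE 0.07), which was not called (edgeR unadjusted p 0.0114, adjusted p 0.157). An unadjusted p under 0.05 was found in 3331 of all genes tested, or 17.6%.

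Gja1 was low. It had 10.6, 11.6, 10.9 and 9.78 CPM in nANGPTL4 AAV cells, against 14.2, 12.6, 8.61 and 11.7 CPM in control AAV cells. The control AAV libraries spanned the whole nANGPTL4 AAV range, and control AAV library 3 was the lowest of all 8. The log2 fold change of -0.14 (SE 0.13) was not called (edgeR adjusted p 0.613). It was -0.03 without control AAV library 1 and -0.25 without control AAV library 3, so its size depended on single control libraries.

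Panx1, the membrane channel gene of the set, was the only one with a positive value. It had 6.16, 5.98, 4.86 and 6.04 CPM in nANGPTL4 AAV cells, against 4.61, 5.62, 5.07 and 5.33 CPM in control AAV cells. Of the nANGPTL4 AAV libraries, 3 lay above every control AAV library, and library 3 lay among them. The log2 fold change was 0.16 (SE 0.10) and was not called (edgeR adjusted p 0.457). Its value was 0.24 without nANGPTL4 AAV library 3.

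Counted over the set, 1 of 5 genes was called, beside 0.138% of all genes, and 1 of 5 had groups that did not overlap, beside 10.9% of all genes in either direction and 6.99% with nANGPTL4 AAV below control AAV. DESeq2 and limma-voom also called Gja5 alone of the 5, beside 956 genes (5.07%) and 21 genes (0.111%) over the whole table. Nothing is read from these counts, since Gja5 was chosen on this comparison. The median log2 fold change was -0.21 over the 5 genes, and it was 0.01 over all genes tested and -0.03 over the 9256 genes with a mean log2 CPM over 3.

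Levels were compared between genes per kilobase, after dividing CPM by the length of the union of annotated exons. Gja4 was far above the others, at 202 ± 49.1 CPM per kb in nANGPTL4 AAV cells and 250 ± 63.7 CPM per kb in control AAV cells (SD, n = 4 each). That placed it above 99.1% of 18819 genes in nANGPTL4 AAV cells and above 99.3% in control AAV cells. Gja5 and Gjc1 came next and lay close together. Gja5 was at 11.1 ± 0.748 CPM per kb in nANGPTL4 AAV cells and 16.9 ± 1.45 CPM per kb in control AAV cells. Gjc1 was at 12.4 ± 0.956 CPM per kb in nANGPTL4 AAV cells and 14.4 ± 1.10 CPM per kb in control AAV cells. The ranges of the pair overlapped in each group. Within libraries, Gja5 was below Gjc1 in 4 of 4 nANGPTL4 AAV libraries and above it in 3 of 4 control AAV libraries at this length. The level of Gja5 stood above 78.3% of genes in nANGPTL4 AAV cells and above 84.9% in control AAV cells.

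Gja1 and Panx1 formed the low end of the order, and with the union of exons their ranges overlapped. Gja1 was at 1.04 ± 0.0728 CPM per kb in nANGPTL4 AAV cells and 1.15 ± 0.230 CPM per kb in control AAV cells. Panx1 was at 0.955 ± 0.101 CPM per kb in nANGPTL4 AAV cells and 0.855 ± 0.0710 CPM per kb in control AAV cells. With the longest transcript the pair did not overlap, at 2.75 CPM per kb in nANGPTL4 AAV cells and 3.03 in control AAV cells for Gja1 and 1.005 in nANGPTL4 AAV cells and 0.900 in control AAV cells for Panx1. With the median transcript length Gja1 was also above Panx1 in every library. The place of Gja5 against Gjc1 likewise depended on the length used in control AAV cells. In nANGPTL4 AAV cells Gja5 was below Gjc1 in 4 of 4 libraries at each length. With the longest transcript, Gja5 had 17.4 CPM per kb in nANGPTL4 AAV cells and 26.4 in control AAV cells, and Gjc1 had 18.2 in nANGPTL4 AAV cells and 21.05 in control AAV cells. With the median transcript, Gja5 was below Gjc1 in both groups, at 20.6 against 32.7 CPM per kb in nANGPTL4 AAV cells and 31.2 against 37.7 in control AAV cells.

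**Figure D3:**
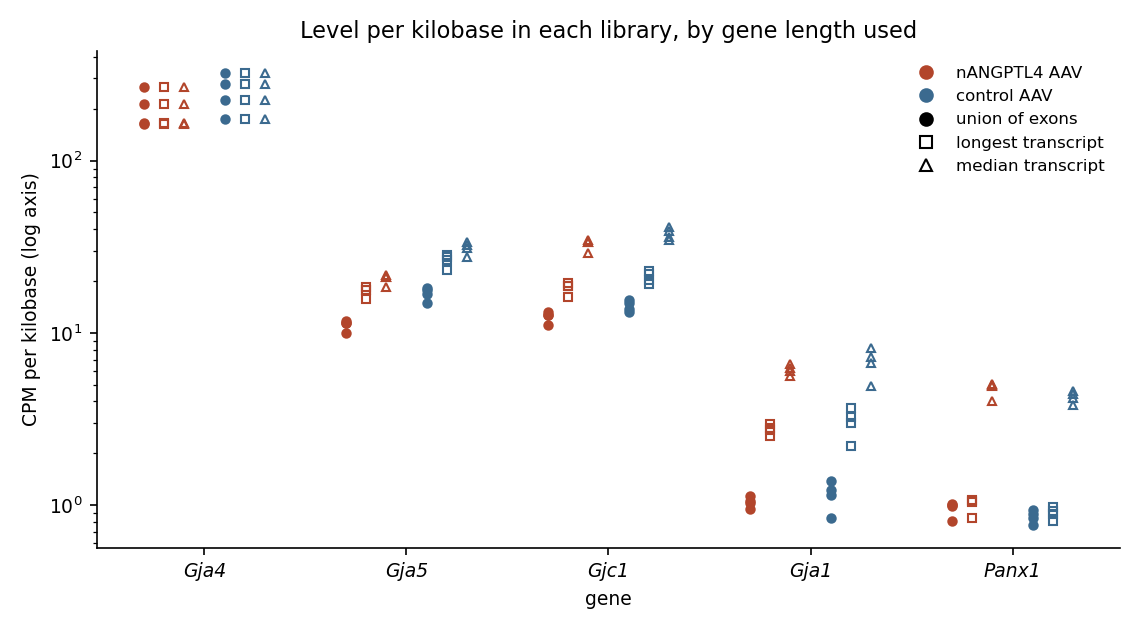
CPM per kilobase (vertical log axis) of the 5 genes in each library, with nANGPTL4 AAV left of control AAV and a marker for each of 3 gene lengths. Gja4, which has 1 annotated transcript, stands above the rest, Gja5 and Gjc1 share the middle, and Gja1 and Panx1 are lowest. Gja5 and Gjc1 change places with the length used in control AAV libraries only.

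Ratios within a library do not depend on its scaling. Gja5 over Gjc1, in CPM, was 1.02, 1.04, 1.02 and 1.03 in nANGPTL4 AAV cells, against 1.47, 1.14, 1.34 and 1.47 in control AAV cells. The nANGPTL4 AAV ratios were nearly equal, and each lay below every control ratio. Gja4 over Gja5, in CPM per kb, was 14.5, 26.6, 18.2 and 14.3 in nANGPTL4 AAV cells, against 9.90, 21.6, 12.5 and 16.6 in control AAV cells. Here the groups overlapped, and library 2 was the highest of each. Against the endothelial adhesion gene Pecam1, the CPM of Gja5 was 2.27% to 2.52% in nANGPTL4 AAV cells and 3.01% to 4.02% in control AAV cells. Against Cdh5, the cadherin of endothelial junctions, it was 5.01% to 5.89% in nANGPTL4 AAV cells and 6.97% to 9.03% in control AAV cells. These ratios contain the same Gja5 counts that chose the set and are given as a description.

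Arterial endothelial markers had mostly negative values, each smaller in size than that of Gja5. Of 16 markers, 13 had a negative and 3 a positive log2 fold change, with a median of -0.16 beside 0.01 over all genes tested. edgeR and limma-voom called none of them, and 8 had an unadjusted p under 0.05 (17.6% of all genes did). DESeq2 called 3, Vegfc, Fbln5 and Stmn2, beside 5.07% of all genes. Fbln5, which encodes an elastic fibre protein, averaged 54.4 ± 6.85 CPM in nANGPTL4 AAV cells and 70.6 ± 5.93 CPM in control AAV cells, and its log2 fold change was -0.38 (SE 0.09, edgeR adjusted p 0.0876). Vegfc, a growth factor gene, had -0.37 (SE 0.09, edgeR adjusted p 0.0895). Efnb2, the ligand that marks arteries, had -0.21 (SE 0.07, edgeR adjusted p 0.149), and Stmn2, a microtubule regulator, had 0.14 (SE 0.04, edgeR adjusted p 0.119).

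The 16 values ran from -0.38 for Fbln5 to 0.19 for Eln. That of Gja5, which was chosen for its value in this comparison, lay outside their range. Summed over the 16 genes, the arterial markers reached 4924 to 5278 CPM in nANGPTL4 AAV cells and 5318 to 5954 CPM in control AAV cells, which do not overlap. The log2 CPM of Gja5 minus the mean of the 16 markers was -1.26, -1.38, -1.11 and -1.08 in nANGPTL4 AAV cells, against -0.66, -0.99, -0.55 and -0.77 in control AAV cells. The groups did not overlap on this difference either. It contains the same Gja5 counts that chose the set and is given as a description. The part of the arterial cell share in the value of Gja5 was not tested.

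**Figure D4:**
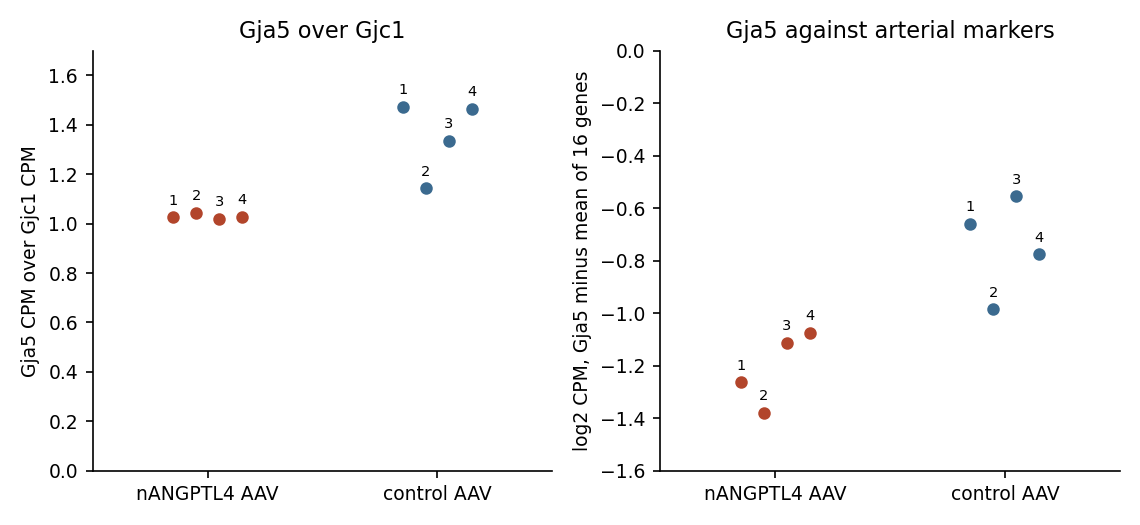
Left, Gja5 CPM over Gjc1 CPM (vertical axis from 0), and right, log2 CPM of Gja5 minus the mean of 16 arterial markers (vertical axis), for each library numbered 1 to 4, with nANGPTL4 AAV left of control AAV. In both, the nANGPTL4 AAV libraries lie below all control AAV libraries, at 1.02 to 1.04 and -1.38 to -1.08. Both contain the Gja5 counts that chose the set.

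Markers of other endothelial types had medians between -0.27 and 0.04. All 11 venous markers had a negative log2 fold change, with a median of -0.27. The lowest was -0.73 for Ackr1, at 0.663 CPM in nANGPTL4 AAV cells and 1.09 CPM in control AAV cells. The venous markers summed to 2651 to 3025 CPM in nANGPTL4 AAV cells and 3370 to 3582 CPM in control AAV cells. None was called by edgeR or limma-voom, 7 had an unadjusted p under 0.05, and DESeq2 called 3. Over all genes tested, 47.8% had a negative log2 fold change, 17.6% had an unadjusted p under 0.05 and DESeq2 called 5.07%. Among them, Ephb4, the receptor of Efnb2, had -0.24 (SE 0.05, edgeR adjusted p 0.0694), and Vwf, the clotting factor carrier, had -0.27 (SE 0.06, edgeR adjusted p 0.0783). All 8 general capillary markers were negative, with a median of -0.16 and a sum of 15280 to 16940 CPM in nANGPTL4 AAV cells and 16880 to 18790 CPM in control AAV cells. None was called by edgeR, 4 had an unadjusted p under 0.05, DESeq2 called 3 and limma-voom called 1. The lowest was Cd93, a membrane glycoprotein gene, at -0.29 (edgeR adjusted p 0.0622), and Ptprb, the phosphatase that acts on Tek, had -0.17 (edgeR adjusted p 0.124).

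Of 9 aerocyte markers, which mark the capillary cells of gas exchange, 7 were positive, with a median of 0.04 and a sum of 9405 to 11240 CPM in nANGPTL4 AAV cells and 9391 to 9982 CPM in control AAV cells. The upper end was nANGPTL4 AAV library 3, while the other libraries of that group lay between 9405 and 9519 CPM. Without library 3, 4 of the 9 were positive and the median was -0.05, so the direction of this list rested on it. None was called by edgeR, DESeq2 or limma-voom, and Kitl (-0.13) was the 1 gene with an unadjusted p under 0.05, while Igfbp7 had 0.12. Of 6 lymphatic markers, 5 were negative, with a median of -0.19 and a sum of 924 to 1005 CPM in nANGPTL4 AAV cells and 893 to 1348 CPM in control AAV cells. That median was -0.09 without nANGPTL4 AAV library 2 and -0.08 without control AAV library 2. None was called by edgeR or limma-voom, and Flt4 (-0.14), the 1 gene with an unadjusted p under 0.05, was called by DESeq2, while Lyve1 had -0.26. The markers shared by all endothelial cells had a median of -0.05, and 10 of 11 were negative. None of those was called by edgeR or limma-voom, 2 had an unadjusted p under 0.05, Flt1 (-0.15) and Tek (-0.13), and DESeq2 called Flt1. For all these lists, the shares to set beside the counts are 17.6% of all genes with such a p and 5.07% called by DESeq2.

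Cell types outside the endothelium that carry connexins were at low levels in these libraries. The 10 smooth muscle and pericyte markers, whose cells use connexins 43 and 45, summed to 38.5 to 52.7 CPM in nANGPTL4 AAV cells and 32.2 to 54.7 CPM in control AAV cells. Acta2, smooth muscle actin, was at 5.26 ± 1.15 CPM in nANGPTL4 AAV cells and 7.32 ± 2.65 CPM in control AAV cells. Atrial muscle is another tissue known for connexin 40. The 11 cardiac muscle markers summed to 20.5 to 25.9 CPM in nANGPTL4 AAV cells and 19.0 to 25.2 CPM in control AAV cells. Of their defining genes, Myh6 was at 0.754 CPM in nANGPTL4 AAV cells and 0.545 CPM in control AAV cells, and Nppa was at 0.152 CPM in nANGPTL4 AAV cells and 0.148 CPM in control AAV cells. Most of the sum came from Myl4, the atrial light chain, at 10.4 ± 1.17 CPM in nANGPTL4 AAV cells and 9.45 ± 0.770 CPM in control AAV cells, and from Pln, phospholamban, at 6.86 CPM in nANGPTL4 AAV cells and 5.61 CPM in control AAV cells.

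Epithelial, fibroblast and blood cell markers had positive medians of the log2 fold change. These were 0.27 for epithelial, 0.27 for fibroblast and 0.32 for erythroid and platelet genes. They were 0.43 for the 4 myeloid genes tested and 0.49 for the 3 lymphocyte genes tested. The fibroblast median became -0.06 without nANGPTL4 AAV library 2, with 2 of 8 genes positive. The epithelial median became -0.03 without control AAV library 1, with 5 of 10 positive, so both directions rested on single libraries. The 10 epithelial markers summed to 191 to 313 CPM in nANGPTL4 AAV cells and 88.0 to 234 CPM in control AAV cells. The 8 fibroblast markers summed to 32.6 to 85.4 CPM in nANGPTL4 AAV cells and 23.6 to 63.4 CPM in control AAV cells. The 8 myeloid markers summed to 28.4 to 48.5 CPM in nANGPTL4 AAV cells and 15.8 to 37.5 CPM in control AAV cells, with Itgam near 0. The 7 lymphocyte markers summed to 2.18 to 4.89 CPM in nANGPTL4 AAV cells and 1.69 to 2.13 CPM in control AAV cells, with Cd8a near 0. The 7 erythroid and platelet markers summed to 74.0 to 86.2 CPM in nANGPTL4 AAV cells and 45.7 to 88.9 CPM in control AAV cells. No gene of these 7 lists was called by edgeR or limma-voom, and DESeq2 called 3 genes higher, Cox4i2, Scgb1a1 and Cd68, and 1 lower, Foxj1 at -0.86. An unadjusted p under 0.05 was found in 1 of 10 smooth muscle, 0 of 11 cardiac, 1 of 8 fibroblast and 3 of 10 epithelial genes. It was found in 1 of 4 tested myeloid, 2 of 3 tested lymphocyte and 3 of 7 erythroid or platelet genes. Without nANGPTL4 AAV library 2, 0 lymphocyte and 0 erythroid or platelet genes had an unadjusted p under 0.05. Among all genes tested, 17.6% had such a p and DESeq2 called 5.07%. The part of these cells in the values of the connexins was not tested.

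Genes that act upstream of arterial connexins were below control more often than above it. The list held 21 tested genes of the Notch, BMP, shear stress and SOX pathways, of which 17 had a negative and 4 a positive log2 fold change, with a median of -0.13. No gene of the list was called by edgeR or limma-voom, 7 had an unadjusted p under 0.05, and DESeq2 called 2, Notch1 and Jag1. The shares over all genes tested were 47.8% negative, 17.6% with an unadjusted p under 0.05 and 5.07% called by DESeq2. Notch1, the receptor that drives arterial identity, averaged 642 ± 40.6 CPM in nANGPTL4 AAV cells and 777 ± 35.6 CPM in control AAV cells, which is -0.27 as a log2 fold change (SE 0.06, edgeR adjusted p 0.0674). As for 3 of the 21 genes and 6.99% of all genes tested, every nANGPTL4 AAV library was below every control AAV library for Notch1. Its ligand Jag1 averaged 88.1 ± 17.3 CPM in nANGPTL4 AAV cells and 117 ± 12.0 CPM in control AAV cells, with -0.42 (SE 0.13, edgeR adjusted p 0.144) and overlapping groups.

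The BMP signal transducer Smad5 had -0.16 (SE 0.05, edgeR adjusted p 0.122), and the endothelial transcription factor Sox7 had -0.25 (SE 0.09, edgeR adjusted p 0.179). The next 3 genes were named for their roles after their values were seen. Dll4, the arterial Notch ligand, had -0.13 (SE 0.05, edgeR adjusted p 0.224), and Sox17, an arterial transcription factor, had -0.23 (SE 0.09, edgeR adjusted p 0.232). Klf2, the factor induced by laminar flow, had 4835, 2298, 2267 and 3848 CPM in nANGPTL4 AAV cells, against 4293, 1410, 2631 and 2897 CPM in control AAV cells. Its groups overlapped widely, and its log2 fold change of 0.24 had an SE of 0.32 (edgeR adjusted p 0.741). Notch1 shares 7.5% of its exonic bases with a transcript on the opposite strand, Dll4 shares 5.56% and Sox17 shares 16.8% of theirs with another annotated gene, and without a stated strand setting reads of such pairs cannot be told apart.

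Genes that bind, anchor or turn over connexins were close to control. Of 17 tested genes, 11 had a negative and 6 a positive log2 fold change, with a median of -0.03, beside 0.01 over all genes tested. With upper quartile or library size scaling, where the median over all genes tested became 0.05, that of the 17 genes became 0.01. By edgeR and limma-voom 0 were called, 5 had an unadjusted p under 0.05, and DESeq2 called 2, among them Cav1, beside 17.6% and 5.07% of all genes. Cav1, the coat protein of caveolae, averaged 2694 ± 114 CPM in nANGPTL4 AAV cells and 3055 ± 123 CPM in control AAV cells, with -0.18 (SE 0.05, edgeR adjusted p 0.113). Tjp1, the scaffold that binds connexins at the junction edge, had -0.17 (SE 0.06, edgeR adjusted p 0.16). Every nANGPTL4 AAV library lay below every control AAV library for both Cav1 and Tjp1. Such a separation was found for 3 of the 17 genes and for 6.99% of all genes tested. Nos3, the endothelial nitric oxide synthase, had -0.16 (SE 0.05, edgeR adjusted p 0.169) with overlapping groups, and 25.2% of its exonic bases lie opposite an antisense gene.

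**Figure D5:**
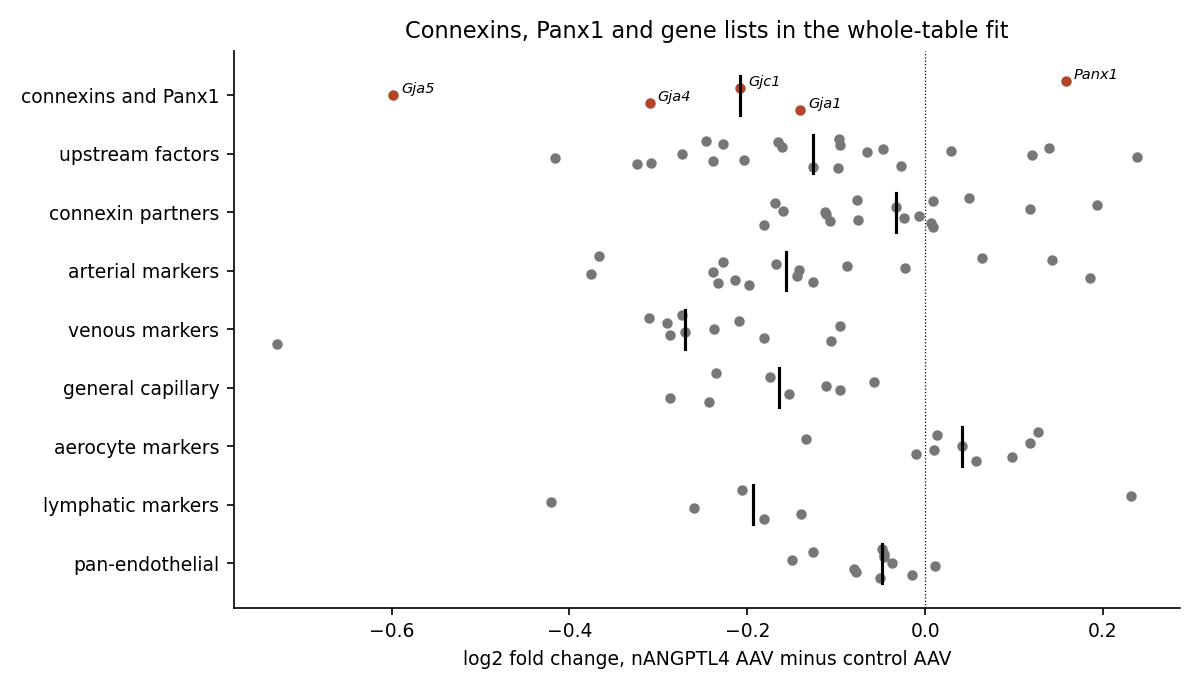
Log2 fold change of each tested gene (points, horizontal axis, nANGPTL4 AAV minus control AAV) by list (rows), with black bars for the list medians and the dotted line at 0. Gja5, chosen for its value in this comparison, lies at -0.60, left of all 16 arterial markers, which run from -0.38 to 0.19. The venous marker Ackr1 lies further left, at -0.73. Gja4, Gja1, Gjc1 and Panx1 lie among the other genes.

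The rest of the connexin and pannexin family was near the floor of detection. Of 18 other family genes, 14 were in the table and 2 passed the low-count filter, and Gja3, Gjb5, Gjd2 and Gje1 were not analysed here. Panx2 had 16, 8, 11 and 14 reads in nANGPTL4 AAV cells, against 1, 9, 9 and 1 in control AAV cells, which is 1.21 as a log2 fold change (SE 0.58, edgeR adjusted p 0.312). No gene of the family outside the 5 was called by edgeR, DESeq2 or limma-voom, and 0 had an unadjusted p under 0.05. Gja10, Gjb1, Gjb2, Gjb6, Gjc3 and Panx3 had at most 10 reads in any library. All 14 together summed to 0.948 to 1.74 CPM in nANGPTL4 AAV cells and 0.703 to 1.71 CPM in control AAV cells, below the level of Panx1 alone.

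Genes around Gja5 on chromosome 3 had values closer to 0 or positive. Gja5 is annotated at chr3:96904693-97077416 on the plus strand, and 28 genes lie within 300 kb of it, of which 25 were in the table and 17 were tested. None of the 17 was called by edgeR or limma-voom, 4 had an unadjusted p under 0.05, and DESeq2 called 1, Ankrd35. Beside these counts stand 17.6% of all genes tested with an unadjusted p under 0.05 and 5.07% called by DESeq2. Their log2 fold changes ran from -0.24 to 0.85, all above that of Gja5, which was chosen for its value in this comparison. Gpr89, whose exons share 165 bases (2.87%) with those of Gja5 on the opposite strand, was at 29.8 ± 0.480 CPM in nANGPTL4 AAV cells and 31.5 ± 1.78 CPM in control AAV cells, which is -0.08 as a log2 fold change (SE 0.05, edgeR adjusted p 0.447). Acp6 and Bcl9, the coding genes downstream, had -0.03 and 0.07.

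Part of the Gja5 sequence also occurs elsewhere in the transcriptome. Of 5737 stretches of 31 bases in the Gja5 transcripts, 951 (16.6%) recur in another gene, and 798 (13.9%) are found in Zfp697. All 798 lie in the transcript of 3668 bases, and the transcript of 3109 bases holds none. Zfp697 was at 30.2 ± 3.55 CPM in nANGPTL4 AAV cells and 28.5 ± 0.788 CPM in control AAV cells, which is 0.08 as a log2 fold change (SE 0.07, edgeR adjusted p 0.6). How reads in the shared stretches were assigned is not given in these sources, and their part in the value of Gja5 was not tested. The share of such stretches was 1.35% for Gja1, 0.716% for Gjc1, 0.1% for Panx1 and 0 for Gja4.

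The genes most like Gja5 across libraries were sought by Pearson's r of log2 CPM over the 8 libraries, after each group's mean was subtracted, among 9004 genes with a mean log2 CPM of at least 3. They were Morc3 (r 0.984), Eloc (0.984), Ppat (0.947), Psma3 (0.945) and Lta4h (0.94), with Spearman's rho between 0.738 and 1.0. These values describe 8 libraries, share the scaling of each library and carry no test. They are the largest of 9004 values, picked for their size. In each group, library 2 was the lowest for Gja5 and for all 5 of these genes. Without subtracting the group means, 2 of the 5 remained among the 5 most like Gja5, Morc3 and Ppat. The other connexins were not among the most like, with r of 0.432 for Gjc1 (rank 2092), -0.442 for Gja1 (rank 7243) and -0.763 for Gja4 (rank 8722 of 9004). Panx1 was below the level needed for this comparison. Gja4, the arterial partner, thus ranked near the opposite end from Gja5 within groups, with a weaker Spearman's rho of -0.619. Library 2 of each group was the lowest for Gja5 and the highest for Gja4, so these 2 libraries weigh on that r.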

How the data were processed

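RNA of sorted lung endothelial cells was sequenced in 8 libraries, 4 per group. The deposited table holds whole-number read counts per Ensembl gene, not normalized, on build mm10 per the submitters' processing notes. Aligner, counter, strand setting and annotation are not given in the sources used here. Counts were tested with edgeR 4.0.16 in R 4.3.3 (filterByExpr, minimum count 10, TMM, quasi-likelihood F test, group only), with Benjamini-Hochberg adjustment over all 18874 genes. DESeq2 1.42.0, limma-voom (limma 3.58.1), other scalings and filters, a replicate block, leaving out each library and a correction for GC content and length were alternatives. The fit was tested on simulated data. Log2 CPM used a prior count of 2. Symbols matched 31491 identifiers, and coordinates and lengths came from GENCODE M21. Named genes were the 5 genes, tested family members, up to 4 genes by p in the upstream, partner and arterial lists and up to 2 in others, the 5 most like Gja5, neighbours within 300 kb and genes sharing sequence. The genes and lists were chosen with earlier results of these data known. Total counts were 83183122 to 114337333, and replicate libraries differed beyond sampling noise (chi-square per degree of freedom 18.7 to 54.4). Replicates are labelled independent; no batch is given. No column was left unmapped. A few genes of the lists are not reported here.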

Additional observations from a re-analysis of the deposited data

Results flagged for a closer look

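Among 108 groups of 4 libraries (54 genes), 3 held a library far from the other 3, by the gap to its nearest neighbour over the whole range of the group (Dixon's test at the 95% level, where chance flags about 5%). Panx1 in nANGPTL4 AAV cells was flagged at 0.857, since library 3 had 4.86 CPM and the others had 6.16, 5.98 and 6.04 CPM. Tek, the angiopoietin receptor, was flagged in nANGPTL4 AAV cells at 0.911, with 1633 CPM in library 3 and 1701, 1695 and 1697 CPM in the others. Cd68, a macrophage marker, was flagged in nANGPTL4 AAV cells at 0.915, with 5.66 CPM in library 2 and 6.89, 6.92 and 6.81 CPM in the others. No cause was tested.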

How the results depend on the processing

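The number of genes called over the whole table, 26, was 4 with upper quartile scaling, 4 with library size only, 1 with the stricter filter, 59 with robust edgeR, 6 with the replicate block, 956 with DESeq2 and, chosen after seeing the data, 15 with a correction for GC content and length; it was 1 to 2 with 1 library left out, and the cause was not tested. The log2 fold change of Gja5 was -0.57 with the stricter filter, no longer called, and ran from -0.64 to -0.54 with 1 library left out; the correction for GC content and length gave -0.58 (edgeR adjusted p 0.0491). With replicate number as a block, Gja5 had -0.60 (edgeR adjusted p 0.00799), but same-numbered libraries did not deviate together (r 0.0193, 0.0402, -0.203 and -0.166). Libraries with different numbers gave r from -0.18 to 0.146. No sign of pairing by number was seen, though with 4 libraries per group such r cannot exclude it. Gja4 ran from -0.46 to -0.16, Gja1 from -0.25 to -0.03, Gjc1 from -0.25 to -0.14 and Panx1 from 0.12 to 0.24 over 18 alternatives, with 0 called and 0 reversed. Gja4 was also -0.44 without control AAV library 1. Gja5 over Gjc1, in CPM per kb over 8 libraries, was 1.04 and became 0.73 with the median transcript length. Of the 5 genes most like Gja5, 2 were shared when log2 CPM was not centred by group. For family genes with at most 10 reads per library, no difference was detectable at this depth. The number of genes with an unadjusted p under 0.05 also depended on single libraries, an alternative chosen after seeing the data. It fell to 5 of 16 arterial genes without nANGPTL4 AAV library 3, control AAV library 1 or control AAV library 2. It fell to 3 of 21 upstream genes without nANGPTL4 AAV library 1 and to 4 without control AAV library 2. For venous genes it fell to 4 of 11 without control AAV library 2. For partner genes it fell to 3 of 17 without nANGPTL4 AAV library 1 or 2 or control AAV library 2. For cardiac genes it rose from 0 to 4 of 11 without control AAV library 3. Without nANGPTL4 AAV library 2 it fell to 0 of 3 lymphocyte genes and 0 of 7 erythroid and platelet genes.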

Other observations

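Gja4 was set beside the flow-responsive transcription factors Klf2 and Klf4 after an opposite course had been seen in the same 8 libraries. The p-values below do not account for that choice, and none passed the correction over 10 relations. Gja4 was highest, at 541 CPM, in control AAV library 2, where Klf2 was lowest, at 1410 CPM, and it was 278 CPM in nANGPTL4 AAV library 1, where Klf2 was highest, at 4835 CPM. Klf4 had 862, 379, 453 and 700 CPM in nANGPTL4 AAV cells, against 735, 394, 523 and 551 CPM in control AAV cells. Over 8 libraries, Gja4 against Klf2 gave Pearson's r of -0.874 in log2 CPM (exact two-sided permutation p 0.00513, adjusted over 10 relations 0.0513) and Spearman's rho of -0.714 (exact permutation p 0.0576, adjusted 0.288). Without the 2 libraries farthest from the median of Klf2, r was -0.737, and after subtracting group means it was -0.879. Gja4 against Klf4 gave r of -0.85 (exact permutation p 0.0109, adjusted 0.0545) and rho of -0.714 (exact permutation p 0.0576, adjusted 0.288), with r of -0.819 without 2 libraries and -0.902 after subtracting group means. Gja5 gave r of -0.0358 against Klf2 (exact permutation p 0.934, adjusted 0.961; rho -0.0238, exact permutation p 0.977, adjusted 0.977), and 0.371 without the 2 libraries. After subtracting group means, which removes the difference between the groups, r for Gja5 was 0.647 against Klf2 and 0.619 against Klf4, given with no test. Among the relations of Gja5, Gja1, Gjc1 and Panx1 with either factor, Gjc1 against Klf2 had the smallest exact permutation p. It was 0.56 for Pearson's r and 0.428 for Spearman's rho.

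Of 156 listed genes tested, 12 were highest of all 8 libraries in nANGPTL4 AAV library 3. An even spread over 8 libraries would put 1 gene of every 8 highest in each, so the 12 are not read as an excess. In 4 of the 12, Akt1, Smad4, Tbx2 and Smurf2, libraries 1 and 2 of that group were also the lowest. This pattern was picked after the values were seen. Akt1, a kinase that phosphorylates connexin 43, had 121, 123, 292 and 178 CPM in nANGPTL4 AAV cells, against 177, 193, 164 and 177 CPM in control AAV cells. Smad4, the shared BMP and TGF-beta transducer, had 44.9, 41.7, 124 and 69.9 CPM in nANGPTL4 AAV cells, against 67.0, 67.4, 57.7 and 62.5 CPM in control AAV cells. Tbx2, a transcription factor of aerocytes, had 533, 546, 958 and 658 CPM in nANGPTL4 AAV cells, against 552 to 654 CPM in control AAV cells. Smurf2, a ubiquitin ligase, had 179, 154, 241 and 226 CPM in nANGPTL4 AAV cells, against 189 to 223 CPM in control AAV cells. Of the neighbours of Gja5, Ankrd35 was the gene farthest above control, at 0.806 ± 0.156 CPM in nANGPTL4 AAV cells and 0.444 ± 0.0756 CPM in control AAV cells (SD, n = 4 each), or 0.85 on the log2 scale.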
